A study of Danio rerio with 20 samples.

Results

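In whole zebrafish larvae, 300 transcripts were lower in every library from larvae exposed to lithium cobalt oxide (LCO) nanosheets than in every library from untreated or ion-exposed larvae. They were taken from the 57775 transcripts of each deposited table by their abundance in TPM, the length-corrected share of a library held by a transcript, on a scale with the same sum in every library. A transcript entered when its highest TPM over the 10 nanosheet libraries was below its lowest TPM over the 10 untreated and ion libraries and its untreated mean was at least 1 TPM. Transcripts whose 5 ion libraries all lay below all 5 untreated libraries were left out, which removed 39. The remaining 312 were ranked by the untreated mean divided by the mean of the nanosheet libraries, and the first 300 were kept. Of the 28782 transcripts with an untreated mean of at least 1 TPM, 351 had nanosheet libraries entirely below the others (1.22%). The reverse, nanosheet libraries entirely above the others, held for 1 (0.00347%). On counts scaled by TMM, which matches libraries on the bulk of their transcripts, 182 were entirely below and 78 entirely above. With TPM divided by median-ratio factors, the numbers were 201 and 62. With TPM rescaled without the most abundant transcript, they were 302 and 10. The size of this imbalance thus depended on the scale of abundance. The TPM values chose the set, so levels against untreated or ion-exposed larvae are given as a description. Calls in those contrasts, given below, do not test the set.

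The larvae were wild type, sampled 10 days after fertilization following a 48-hour exposure, and each library was made from a pool of 20 larvae. The 4 groups of 5 libraries were untreated larvae, larvae given LCO at 1 mg/L, larvae given LCO at 10 mg/L, and larvae given an ion treatment whose makeup and dose the labels do not state. No group carried a transgene or a mutation according to the labels, and larvae of every group were fed from day 5. The labels do not say whether pools shared parents or tanks, so p-values measure only the spread between these pools.

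LCO is a layered cathode material of lithium-ion batteries, and its nanosheets can release lithium and cobalt ions into water. An ion exposure is commonly run beside a nanomaterial to show which changes occur with dissolved ions alone. Transcript abundance in a whole larva averages over all of its tissues, so fewer cells of a type and less RNA per cell cannot be told apart. The files give Ensembl transcript identifiers without gene names, and 0 of them matched the gene tables used here. The transcripts are therefore named by identifier, with no statement of gene, function or sequence, and a lower transcript may reflect its gene or a shift of reads to another transcript of that gene.

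Library totals ranged from 24950529 to 63120039 estimated counts. The first principal component was taken of log2 CPM (estimated counts scaled to library size and by TMM) over the 39355 transcripts tested. It held 14.7% of the variance. On it, 8 libraries stood apart on the side without untreated larvae: 4 of LCO 10 mg/L, 2 of LCO 1 mg/L and 2 of ion. A single 168-base transcript, ENSDART00000182970.1, held 25.1% of all TPM in LCO 10 mg/L replicate 2 and 8.26% in replicate 3. TPM is corrected for length, so these are not its shares of the reads, which are not given here. In those libraries other transcripts were also low in TPM: the median transcript with an untreated mean of at least 1 TPM had a log2 ratio to its untreated mean of -0.54 in that replicate 2 and -0.13 in replicate 3. Several results below depend on this scale, and those values are given beside them.

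The set covered a wide span of abundance and mostly modest falls. The untreated mean ranged from 1.03 to 6235 TPM with a median of 8.78 TPM. It was under 10 TPM for 166 of the 300 transcripts and at least 1000 TPM for 8. The untreated mean was 1.29 to 18.3 times the nanosheet mean, with a median of 1.78. It was at least 2 times the nanosheet mean for 100 transcripts, at least 3 times for 16 and at least 10 times for 2. Lengths ran from 285 to 13486 bases, with a median of 1804.5 bases against 1810 bases for the 28782 transcripts of at least 1 TPM. Abundance was higher than in those transcripts, whose median untreated mean was 4.78 TPM. Only 2 of the 300 shared their rounded counts with another tested transcript, and these were 1 pair within the set (ENSDART00000075904.6 and ENSDART00000172537.2).

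The lowest untreated or ion library was often only a little above the highest nanosheet library. The ratio of the former to the latter had a median of 1.06, was at least 1.1 for 84 transcripts and at least 1.5 for 1. The highest nanosheet library was one of LCO 10 mg/L for 240 transcripts, most often replicate 4 (100) and replicate 1 (76), and one of LCO 1 mg/L for 60. The lowest of the others was an ion library for 225 transcripts and an untreated library for 75. The narrow gap was thus set mainly between the higher nanosheet dose and the ion treatment.

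**Figure D1:**
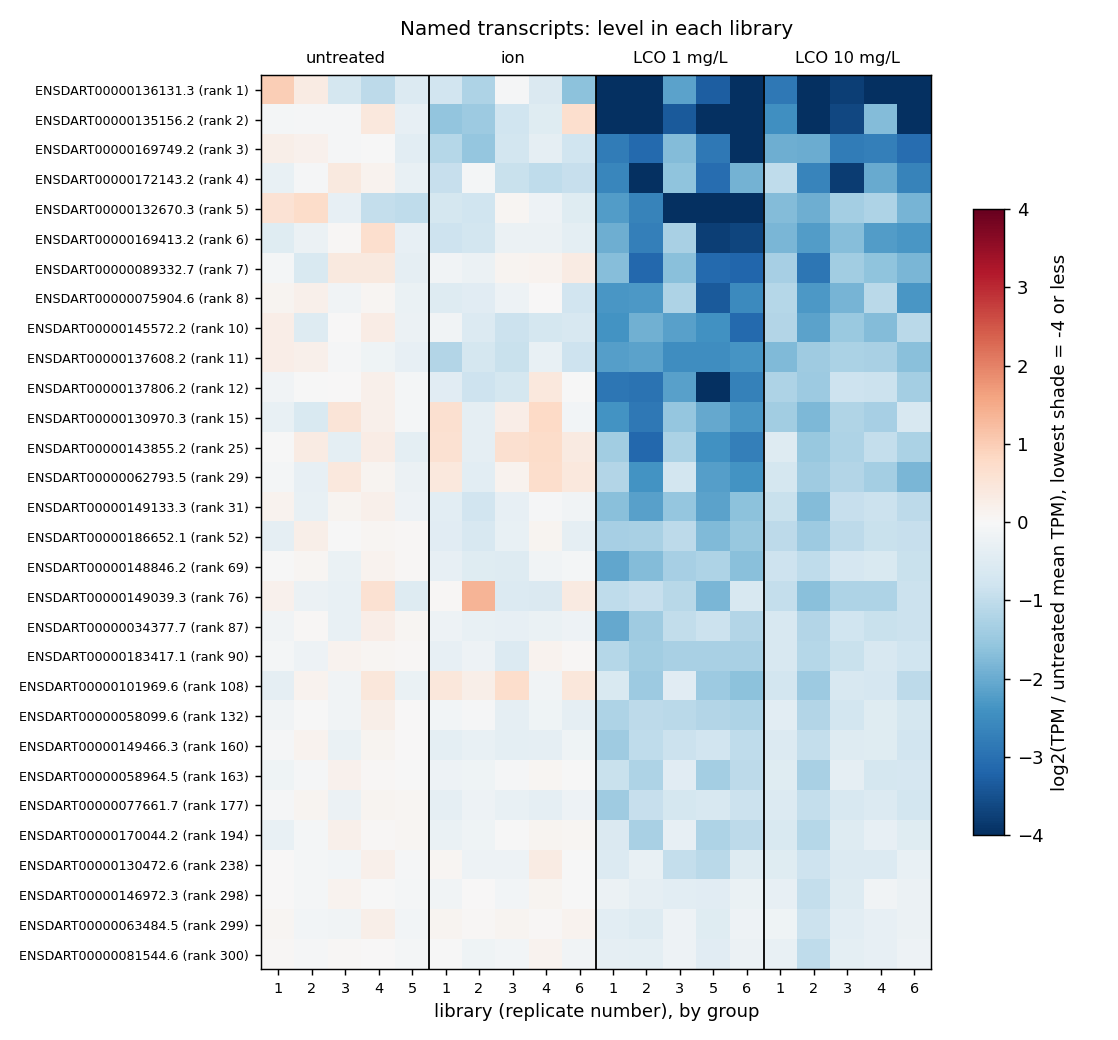
Level of the 30 named transcripts (rows, in rank order) in each of the 20 libraries (columns), as log2 of TPM over the untreated mean, with values of -4 or less in the darkest blue. The blue of the 10 nanosheet libraries deepens towards rank 1, which the ranking by the untreated over nanosheet mean fixed in advance. It is often deeper at 1 than at 10 mg/L, for example in ENSDART00000137806.2, at means of 1.03 and 3.38 TPM.

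The transcripts with the largest ratios were nearly lost from several nanosheet libraries. ENSDART00000136131.3 (923 bases) was at 17.2, 11.035, 5.38, 4.26 and 6.09 TPM in untreated libraries and at 5.13, 3.77, 8.43, 5.84 and 2.85 TPM under ion. It was listed at 0 in 3 libraries of 1 mg/L and at 2.009 and 0.901 TPM in the others, and at 0 in 2 libraries of 10 mg/L, with 1.21, 0.652 and 0.0479 TPM in the rest. Its untreated mean was 15.1 times the mean at 1 mg/L and 23.0 times that at 10 mg/L, the highest ratio at 10 mg/L in the set. Ion lay between, at 0.592 of the untreated mean.

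ENSDART00000135156.2 (802 bases) was at 3.72, 3.79, 3.79, 5.32 and 3.12 TPM in untreated libraries and at 1.32, 1.45, 2.27, 2.83 and 6.25 TPM under ion. It was at 0 in 4 of the 5 libraries of 1 mg/L, with 0.386 TPM in replicate 3. At 10 mg/L it was at 0.714, 0, 0.314, 1.18045 and 0 TPM. The untreated libraries were close together while those under ion spread widely, and the lowest ion library was only 1.12 times the highest nanosheet library. ENSDART00000132670.3 (879 bases) was also at 0 in 3 libraries of 1 mg/L, and at 0.349 and 0.257 TPM in the others, but was present in all 5 libraries of 10 mg/L, between 0.423 and 0.696 TPM. It ranged from 0.816 to 2.74 TPM in untreated libraries and from 0.954 to 1.74 TPM under ion. Zeros occurred in nanosheet libraries for 4 of the 300 transcripts, the other being ENSDART00000172143.2, with 1 zero. Their depth differed: untreated libraries held 21.8 to 62.2 estimated counts of ENSDART00000132670.3, 70.5 to 121 of ENSDART00000135156.2, 90.3 to 190.2 of ENSDART00000172143.2 and 115 to 460.1 of ENSDART00000136131.3. A zero says that no read was assigned at this depth.

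ENSDART00000089332.7 (2250 bases) had the widest gap, with its lowest untreated or ion library at 1.63 times its highest nanosheet library. It was at 1.38, 0.947, 1.89, 1.88 and 1.13 TPM in untreated libraries and at 1.31, 1.23, 1.56, 1.59 and 1.82 TPM under ion. At 1 mg/L it was at 0.446, 0.165, 0.457, 0.167 and 0.160 TPM, and at 10 mg/L at 0.581, 0.197, 0.550, 0.476 and 0.408 TPM. Ion and untreated libraries fully overlapped here, at means of 1.502 ± 0.237 and 1.45 ± 0.431 TPM (SD, n = 5), and every nanosheet library was lower. ENSDART00000169413.2 (2703 bases) was at 1.6005 to 3.63 TPM in untreated libraries, 1.29 to 1.93 TPM under ion, 0.165 to 0.920 TPM at 1 mg/L and 0.452 to 0.702 TPM at 10 mg/L. Its ion mean was 0.725 of the untreated mean, although those groups overlapped.

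A further 4 transcripts of the first 10 ranks had ion means below the untreated mean. The ion mean was 0.551 of the untreated mean for ENSDART00000169749.2, 0.606 for ENSDART00000172143.2, 0.682 for ENSDART00000145572.2 and 0.776 for ENSDART00000075904.6. Their means spanned 0.402 to 0.684 TPM for the lower dose and 0.514 to 1.26 TPM for the higher dose, against 2.28 to 3.49 TPM in untreated larvae. ENSDART00000172143.2 came close to failing the rule, with 1.13 TPM in its lowest ion library and 1.12 TPM in its highest nanosheet library.

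The most abundant transcripts outside the first 10 ranks had untreated means of 1.64 to 2.20 times the nanosheet means, around the set median of 1.78. ENSDART00000077661.7 (871 bases) led them, at 6004, 6701, 5297, 6659 and 6516 TPM in untreated libraries and 4838, 5449, 5083, 4850 and 5392 TPM under ion. It was at 2312, 3297, 3804, 3999 and 3454 TPM at 1 mg/L and at 4251, 3188, 4019, 4299 and 3777 TPM at 10 mg/L. The untreated mean was highest, the ion mean between and the nanosheet means lowest, and the untreated and ion libraries overlapped. ENSDART00000149466.3 had the same order, at means of 5688, 4562, 2847 and 3645 TPM in untreated, ion, 1 mg/L and 10 mg/L libraries. On the TMM scale their log2 fold changes of 10 mg/L over ion were small, at -0.21 and -0.14. Of the named abundant transcripts, only ENSDART00000034377.7 met the rule on TMM-scaled CPM or with TPM divided by median-ratio factors.

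ENSDART00000034377.7 (1353 bases) was at 1205, 1379, 1080, 1583 and 1401 TPM in untreated libraries and 1161, 1075, 1052, 1101 and 1161 TPM under ion. It was at 323, 498, 668, 731 and 589 TPM at 1 mg/L and at 852, 588, 760, 720 and 735 TPM at 10 mg/L. Its lowest ion library was 1.23 times its highest nanosheet library, the widest gap among the named abundant transcripts. For ENSDART00000170044.2 and ENSDART00000058964.5 the ion mean was 0.968 and 0.952 of the untreated mean, at untreated means of 2258 ± 296 and 1549 ± 139 TPM (SD, n = 5). Summed over the 300 transcripts, 29509 to 34728 TPM were found per untreated library, 26456 to 29245 under ion, 12881 to 18688 for the lower dose and 15554 to 21640 for the higher dose. The rule required the nanosheet sums to be the lowest. The sums also rest heavily on a few transcripts: the most abundant 2 had untreated means of 6235 and 5688 TPM, of 32309 TPM for all 300.

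The set held transcripts at both ends of the length range. ENSDART00000062793.5 (13486 bases) was at 5.45, 4.54, 7.64, 6.18 and 4.87 TPM in untreated libraries and 7.61, 4.30, 6.37, 9.31 and 7.75 TPM under ion. At 1 mg/L it was at 2.53, 1.096, 3.47, 1.24 and 1.105 TPM and at 10 mg/L at 3.51, 2.16, 2.55, 2.22 and 1.61 TPM. Ion here was on average above untreated. ENSDART00000130472.6 (13133 bases) went from 1.03 ± 0.0935 TPM in untreated larvae to 0.655 ± 0.142 at 1 mg/L and 0.708 ± 0.0914 at 10 mg/L, with 1.04 ± 0.157 with ion (SD, n = 5). At the short end, ENSDART00000186652.1 (285 bases) was at 56.7 ± 8.02 TPM in untreated larvae and 45.7 ± 9.46 TPM under ion, against 21.8 ± 3.99 TPM for the lower dose and 27.3 ± 3.91 TPM for the higher dose (SD, n = 5). ENSDART00000130970.3 (396 bases) was at 23.5 ± 7.20, 29.1 ± 9.56, 5.22 ± 1.77 and 10.1 ± 3.09 TPM in the same order.

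At the limit of 300, the last members kept were ENSDART00000146972.3, ENSDART00000063484.5 and ENSDART00000081544.6, with untreated means of 1.30, 1.29 and 1.29 times the nanosheet means. The first left out were ENSDART00000126020.3, ENSDART00000169814.2 and ENSDART00000149642.2, at 1.29, 1.28 and 1.26 times. In each of these 6, LCO 10 mg/L replicate 2 was the lowest or the second lowest of the nanosheet libraries. In ENSDART00000081544.6 it was at 7.33 TPM, where the other libraries of 10 mg/L were at 11.2 to 12.9 TPM.

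Under ion, levels of the set lay at or somewhat below those of untreated larvae. The ion mean TPM was below the untreated mean for 241 of 300 transcripts and above it for 59, while it was above it for 68.7% of the 28782 transcripts of at least 1 TPM. On the TMM scale, in which libraries are matched on the bulk of their transcripts, the ion level was lower for 278 of 300, against 50.7% of the 39355 transcripts tested. The median log2 fold change of ion over untreated was -0.23 for the set and -0.00 for all tested. None of the 300 was called under ion by edgeR at an adjusted p under 0.05 (0; 0.028% of tested transcripts were called lower and 0.00762% higher), and at an unadjusted p under 0.05, 115 were lower (background 5.47%) and 0 higher (background 4.56%). No member had all ion libraries above all untreated libraries in TPM (0; background 4.13%). The rule used this contrast and removed the clearest ion falls, so nothing is read from these counts beyond the levels.

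In TPM the ion level varied across the set, although on the TMM scale it was lower than untreated for 278 of 300. The ion mean was within 10% of the untreated mean for 152 transcripts and under 0.75 of it for 16. Highest was ENSDART00000143855.2 (960 bases), at 1.36 times. It was at 44.7, 57.4, 34.6, 56.4 and 34.7 TPM in untreated libraries and at 69.7, 35.5, 71.2, 75.3 and 58.3 TPM under ion. At 1 mg/L it was at 17.5, 5.21, 18.8, 8.54 and 6.87 TPM and at 10 mg/L at 32.1, 15.8, 19.4, 23.7 and 18.9 TPM. Ion replicate 2 lay among the lower untreated libraries, and the other ion libraries lay above all of them. ENSDART00000101969.6 followed at 1.28 times and ENSDART00000149039.3 at 1.24 times, the latter through ion replicate 2 at 20.4 TPM, where the other ion libraries were at 5.35 to 10.3 TPM. The lowest ion means relative to untreated were those of ENSDART00000169749.2, ENSDART00000136131.3 and ENSDART00000137608.2, at 0.551, 0.592 and 0.596.

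**Figure D2:**
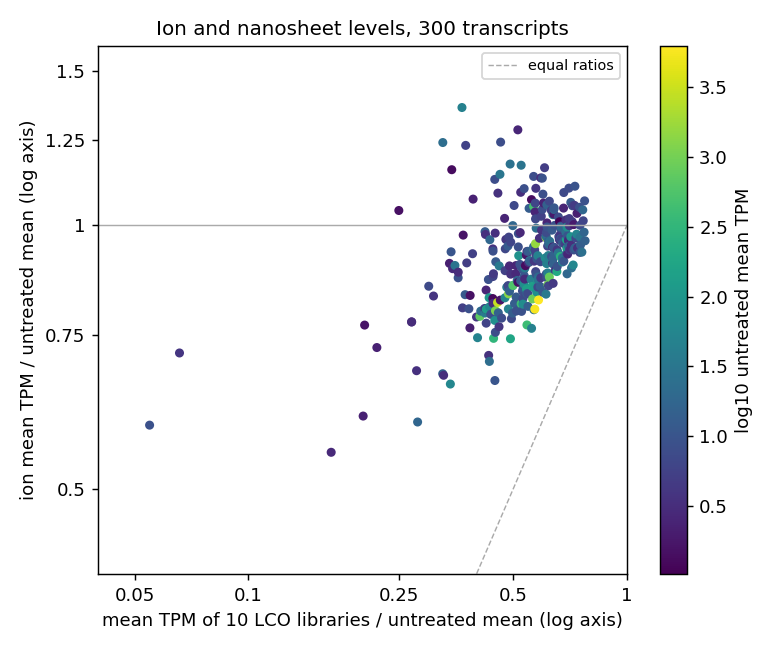
Ion mean TPM over untreated mean (vertical, log axis) against the mean of the 10 nanosheet libraries over untreated mean (horizontal, log axis) for the 300 transcripts, coloured by log10 of the untreated mean TPM. Both axes share the untreated libraries. Points lie above the dashed line of equal ratios because the rule required it, and 59 of them lie above the solid line where ion equals untreated.

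Median levels by library showed how the groups stood. On the TMM scale, the library median of the set, as log2 of the level over the untreated mean, ranged from -0.15 to 0.13 in untreated libraries and from -0.32 to -0.15 under ion. The higher dose spanned -0.87 to -0.60, and the lower dose -1.33 to -0.69. On the TPM scale the lowest library was LCO 10 mg/L replicate 2, at -1.21, of which -0.54 was shared by the median of all transcripts of at least 1 TPM. The 2 libraries of 1 mg/L that stood apart on the first component had the lowest TMM medians, -1.15 and -1.33, while those of the other 3 ranged from -0.99 to -0.69. At 10 mg/L the 4 libraries that stood apart ranged from -0.87 to -0.60 and the other was at -0.61. The part of this separation in the results was not tested beyond the values without those libraries.

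**Figure D3:**
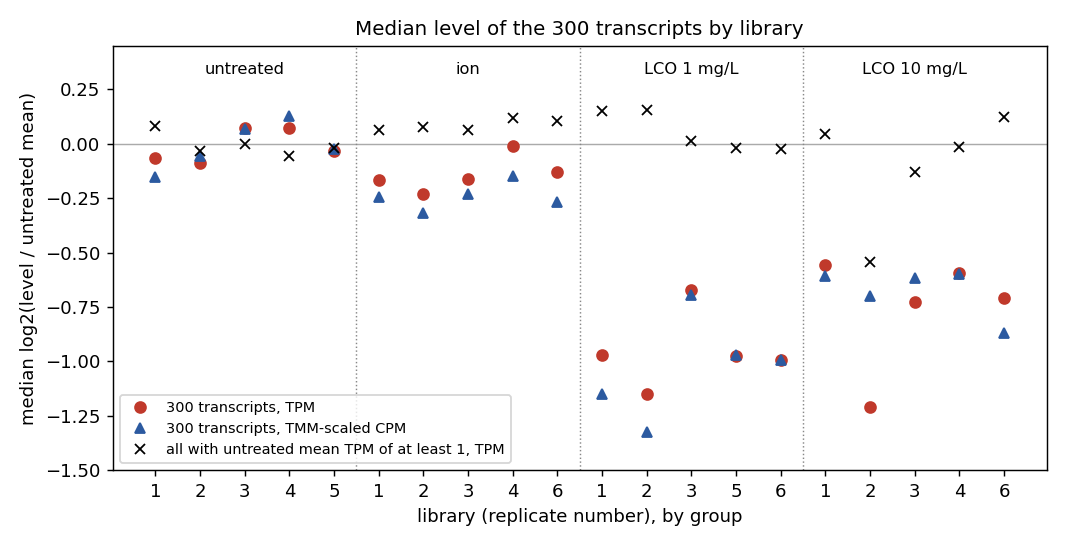
Median over the 300 transcripts of log2 level over untreated mean, in each library, on the TPM scale (circles) and on the TMM-scaled CPM scale (triangles), with the median of all 28782 transcripts of at least 1 TPM (crosses). All 10 nanosheet libraries lie below all ion libraries on both scales, which the rule fixed in advance for TPM. The TMM-scaled values are of the same members in the same libraries, so their order is not separate support. The crosses drop to -0.54 in LCO 10 mg/L replicate 2.

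Transcripts of the set also varied together within groups. For deviations of log2(CPM + 0.1) from the group means over the 20 libraries, the median correlation between pairs of the 300 transcripts was 0.35. It was 0.00 between pairs of 2865 tested transcripts of at least 1 TPM, taken at even steps through the table. Those were not matched to the set in abundance, and the set was chosen on these same libraries. Within groups, 78 of the 300 had a correlation below -0.5 with the first component and 4 had one above 0.5. The same shares over all tested transcripts were not computed, so nothing particular to the set is read from these counts. All pairs share the same libraries, so this describes these libraries.

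Against untreated larvae and against ion, edgeR calls followed the choice of the set, and the background shares are given beside them. The rule used these contrasts, so an excess of lower calls over the background was built in and nothing is read from it. At 1 mg/L 300 of 300 were called lower than untreated, where 8.41% of tested transcripts were, and at 10 mg/L 274 of 300, where 3.99% were. Against ion, 278 were called lower at 1 mg/L (background 4.45%) and 10 at 10 mg/L (background 0.0483%). No member was called higher in these 4 contrasts (0), where 4.34% and 2.28% of tested transcripts were against untreated, and 1.6% and 0.122% against ion, for the lower and the higher dose. At an unadjusted p under 0.05, 261 were lower than ion at 10 mg/L (background 6.01%) and 0 higher (background 5.27%). The median log2 fold change of the set was -1.01 for the lower dose and -0.66 for the higher dose against untreated, and -0.79 and -0.42 against ion.

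The rule did not compare the doses with each other, but it put 1 ceiling in TPM over all 10 nanosheet libraries. The comparison is therefore not free of the choice of the set. Shares of members beside the background are given as a description. Most members had a lower fitted level at 1 mg/L than at 10 mg/L, but few passed the test, and the library medians of the set overlapped between the doses. On the TMM scale LCO 1 mg/L replicate 3 was at -0.69, above replicate 6 of the higher dose at -0.87. In edgeR's quasi-likelihood test with Benjamini-Hochberg adjustment over all 39355 transcripts, 9 of 300 were higher at 10 mg/L, where 0.211% of tested transcripts were, and 0 were lower (background 0.00254%). At an unadjusted p under 0.05, 170 were higher, against 5.49% of those tested, and 0 were lower, against 2.83%. DESeq2 called 64 of the set higher and 0 lower, out of 439 higher and 60 lower among all tested. With limma-voom 1 of the set was called higher and 0 lower, out of 21 higher and 0 lower. The log2 fold change was above 0 for 292 of 300 transcripts, against 51.2% of all tested, and members that vary together are not separate evidence. The median log2 fold change of the set was 0.34 (quartiles 0.18 and 0.49), against 0.01 for all tested. On the TPM scale, where the median of all transcripts of at least 1 TPM was -0.14, that of the set was 0.20, and 250 of 300 had a higher mean at 10 mg/L (background 22.5%). The 2 groups of TPM values did not overlap for 9 transcripts, all higher at 10 mg/L (background 0.32% higher and 0.907% lower). These were not the same 9 as those called by edgeR. Some called transcripts overlapped, such as ENSDART00000056361.6, at 1.47 TPM in LCO 10 mg/L replicate 2 and 1.79 TPM in LCO 1 mg/L replicate 3. The members were chosen on the same libraries, and over all tested transcripts more were also called lower at 1 mg/L than at 10 mg/L against untreated (3308 and 1572).

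**Figure D4:**
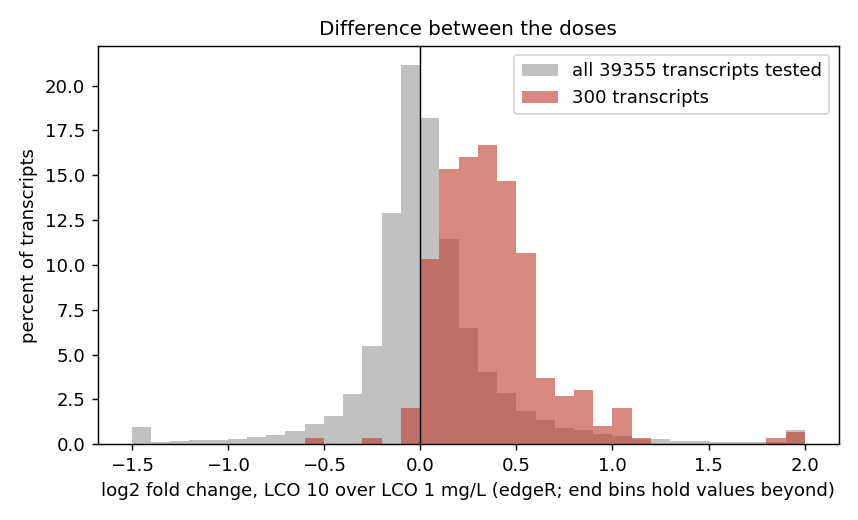
Distribution of the log2 fold change of LCO 10 over LCO 1 mg/L from edgeR (horizontal; end bins hold values beyond) as percent of transcripts (vertical), for all 39355 tested (grey) and the 300 of the set (red). The set lies to the right of 0 for 292 of 300, with a median of 0.34.

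ENSDART00000137806.2 (493 bases) had the smallest adjusted p between the doses. It was at 0.987, 0.943, 1.63, 0.458 and 1.14 TPM at 1 mg/L and at 3.12, 2.71, 4.11, 4.08 and 2.87 TPM at 10 mg/L. It was at 6.68, 7.22, 7.51, 8.42 and 6.99 TPM in untreated libraries and at 5.43, 4.17, 4.504, 9.95 and 7.30 TPM under ion. The doses did not overlap, and the log2 fold change was 1.87 ± 0.29 (SE; edgeR adjusted p = 0.0161). It rested on 7 to 16 estimated counts per library at 1 mg/L.

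ENSDART00000137608.2 (1593 bases) was at 3.83, 3.99, 3.17, 3.17 and 3.49 TPM at 1 mg/L and at 5.27, 6.58, 7.42, 7.25 and 5.53 TPM at 10 mg/L. Under ion it was at 7.94, 10.8, 9.62, 14.6 and 10.0 TPM, and in untreated libraries at 21.4, 20.6, 17.0, 15.7 and 14.1 TPM. In deposited TPM only untreated and ion overlapped. The rule required the gap between ion and the nanosheets, and the lowest ion library was only 1.07 times the highest nanosheet library. The transcript did not meet the rule on TMM-scaled CPM, with median-ratio factors or with TPM rescaled without ENSDART00000182970.1. Between the doses the log2 fold change was 1.04 ± 0.17 (SE; edgeR adjusted p = 0.0211). ENSDART00000148846.2 (850 bases), also among the most abundant, was at 688, 864, 1159, 1219 and 918 TPM at 1 mg/L and at 1640, 1426, 1805, 1894 and 1568 TPM at 10 mg/L. Its untreated libraries were at 2417 to 3195 TPM and its ion libraries at 2030 to 2767 TPM, and the doses differed by 0.92 ± 0.16 (log2, SE; edgeR adjusted p = 0.0219).

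ENSDART00000183417.1, ENSDART00000058099.6 and ENSDART00000149133.3 differed by smaller amounts, with log2 fold changes of 0.63 ± 0.11, 0.61 ± 0.11 and 0.88 ± 0.16 (SE; edgeR adjusted p = 0.0267, 0.0267 and 0.0298). ENSDART00000183417.1 varied little at 1 mg/L, where it was at 1.06 to 1.26 TPM, against 1.27 to 1.79 TPM at 10 mg/L. In the others LCO 10 mg/L replicate 2 overlapped with the lower dose, at 1.35 and 2.57 TPM. The rest of the 9, outside the naming rule and named here after their values were seen, were ENSDART00000051222.6, ENSDART00000047896.8 and ENSDART00000056361.6.

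**Figure D5:**
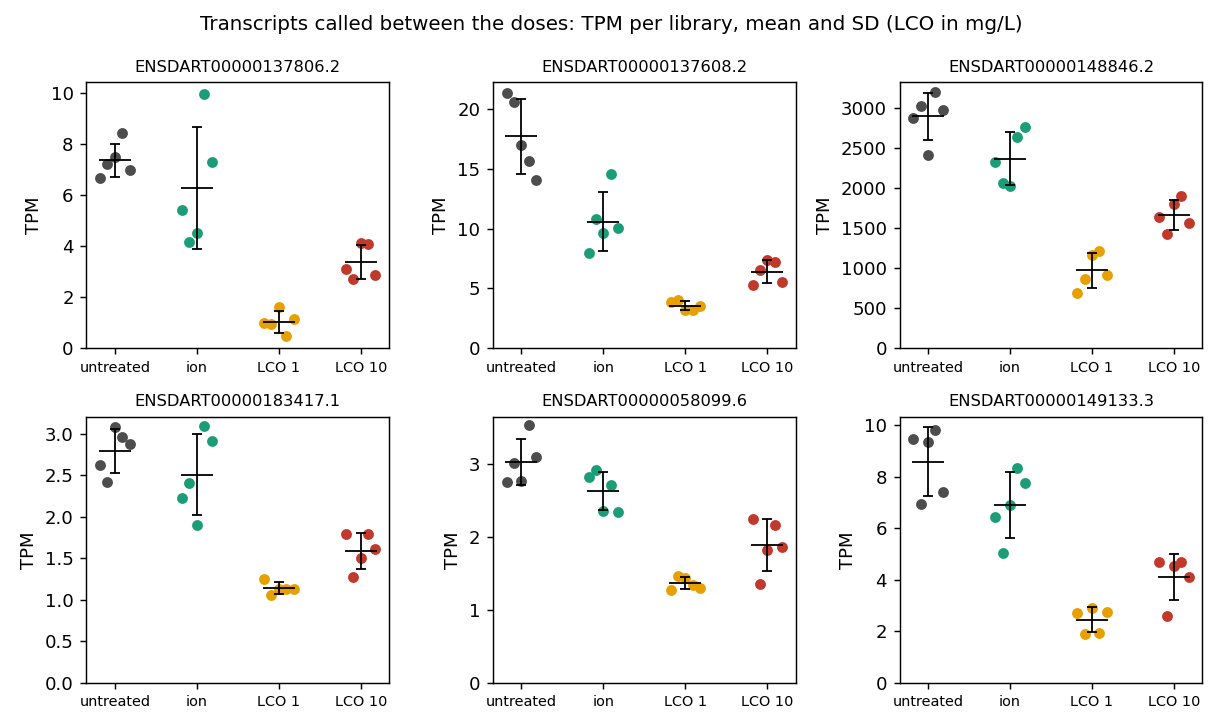
TPM of the 6 named transcripts that differed between the doses, per library (points), with group mean and SD (bars, n = 5), on axes from 0. In every panel the mean at 1 mg/L is lowest and that at 10 mg/L next, below ion and untreated. The rule fixed the order against ion and untreated, and the panels were chosen for a call between the doses.

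The calls depended on single libraries, and the sign of the median did not. The set was not chosen again in these runs and its members vary together, so the steady sign is a description and no separate support. The count of 9 became 0 without LCO 10 mg/L replicates 2, 3 or 4 or LCO 1 mg/L replicate 6, 1 without LCO 1 mg/L replicate 1 or 2, 2 without replicate 5, 24 without LCO 10 mg/L replicate 6 and 44 without LCO 1 mg/L replicate 3. The median log2 fold change of the set stayed between 0.27 and 0.40 when any 1 library was left out. It was 0.24 when the 8 libraries separated by that component were omitted, although a single library of the higher dose then remained.

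Library totals ran from 24950529 to 47031868 estimated counts at 10 mg/L and from 30439905 to 52060281 for the lower dose. A difference in totals did not pass the test with n = 5 per group (exact two-sided permutation p = 0.198, 0.397 after adjustment over the 2 measures compared). The fragment length gap is the median over transcripts of the length lost in the effective length. It was 162 ± 3.60 bases at 10 mg/L and 161 ± 4.39 bases at 1 mg/L (exact two-sided permutation p = 0.802, adjusted 0.802). Untreated libraries were at 152 ± 5.98 bases and ion libraries at 158 ± 6.06 bases (SD, n = 5). The mean gap was thus smallest in untreated libraries, and its part in the choice of the set was not tested.

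The make-up of the set depended on the scale of abundance. With TMM-scaled CPM in place of TPM, 143 transcripts met the rule, and 122 of them were among the 312. With TPM rescaled without ENSDART00000182970.1, 266 met it, 263 of them shared. With TPM divided by median-ratio factors, 159 met it, 134 of them shared. The number with all nanosheet libraries below the others went from 351 on TPM to 182 on TMM-scaled CPM, and the number with all of them above went from 1 to 78. With TPM rescaled without ENSDART00000182970.1 these numbers were 302 and 10. On all 4 scales 119 of the 300 met the rule, among them 8 of the first 10 ranks, ENSDART00000034377.7, ENSDART00000062793.5 and ENSDART00000143855.2. None of the 9 transcripts called between the doses did (0 of 119 by edgeR), although the median log2 fold change between the doses was 0.36 in the 119 and 0.33 in the other 181.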

How the data were processed

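For each library the authors deposited estimated counts, TPM and lengths for 57775 Ensembl transcripts. FastQC 0.11.5, cutadapt 1.18, kallisto 0.45.0 and the build GRCz11 are named per the submitters' processing notes. Their settings are not given in the sources used here. The deposited estimated counts are kallisto's shares of reads among transcripts, and between 58.9% and 65.0% of them per library had a fractional part. Deposited TPM has the same sum in every library, so 1 transcript of very high TPM lowers the rest.

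The set was formed on deposited TPM. Estimated counts were rounded, kept by filterByExpr (minimum count 10; 39355 transcripts, all 300 of the set among them), scaled by TMM and fitted with edgeR 4.0.16 in R 4.3.3, with 20 libraries and group as the only factor. The test was glmQLFTest, two-sided, with a threshold of 0.05 on p after Benjamini-Hochberg adjustment. A standard error is the log2 fold change over the square root of F. Alternatives used DESeq2 1.42.0 and limma 3.58.1. Library measures were compared in scipy 1.17.1. The fragment length gap was read from transcripts over 3000 bases. The fit was tested on simulated counts with known changes between the doses. It recovered 32 of 67 changes of 1.5-fold, 52 of 67 of 2-fold and 58 of 66 of 4-fold. Of its 152 calls 10 were false, and 0 were made when no change was simulated.

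The members, naming rule, tests and alternatives were chosen with earlier results of these data known; 2 alternatives of the scale and 1 without 2 libraries were added after the files were seen. Named were the 10 first ranks, the 6 most abundant of the rest, the 2 longest and 2 shortest, up to 6 called between the doses, 3 on each side of the limit, and the 3 highest and lowest for ion over untreated; transcripts with repeated counts were taken once. Gene lists and gene sums could not be run, since 0 identifiers matched a gene. Same-numbered libraries of the doses had correlations of deviations from -0.20 to 0.17, so the numbers were not taken as pairs.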

Additional observations from a re-analysis of the deposited data

Results flagged for a closer look

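Of 148 groups of 5 libraries examined, over the 33 named transcripts and 4 library measures, 6 had 1 library far from the rest. That is no more than the roughly 5% of groups that chance alone gives, so the cases are listed as values only. ENSDART00000135156.2 was at 0.386 TPM in LCO 1 mg/L replicate 3 and at 0 in the other 4. ENSDART00000172143.2 was at 2.16 TPM in ion replicate 2, where the others were at 1.13 to 1.22 TPM. ENSDART00000149133.3 was at 2.57 TPM in LCO 10 mg/L replicate 2, where the others were at 4.12 to 4.70 TPM. ENSDART00000182970.1, which is not in the set, was at 42039 TPM in control replicate 4, where the other untreated libraries were at 7480 to 10555 TPM, and at 18892 TPM in LCO 1 mg/L replicate 2. The median of the set on the TPM scale was -1.21 in LCO 10 mg/L replicate 2, where that library also held 25.1% of its TPM in ENSDART00000182970.1.

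Differences between the doses that passed the edgeR test were log2 fold changes of 1.87 for ENSDART00000137806.2, 1.04 for ENSDART00000137608.2, 0.92 for ENSDART00000148846.2, 0.63 for ENSDART00000183417.1, 0.61 for ENSDART00000058099.6 and 0.88 for ENSDART00000149133.3, all higher at 10 mg/L.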

How the results depend on the processing

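The number of transcripts meeting the rule (312) was 143 on TMM-scaled CPM and 159 with median-ratio factors. Limits of 0.5 and 2 TPM gave 321 and 298. When the 8 libraries separated by that first component were omitted, 1113 met it. Only 253 of the 312 were among these, and only 89 of the first 300 were shared. Without any 1 library the number was 300 to 453. Without ion replicate 4, 287 of the 312 still met the rule. No untreated library was left out in either of these runs, so members lost there had all remaining ion libraries below all untreated libraries. The 84 transcripts differing between the doses became 45 with no filter on low counts, 0 with only the 2 nanosheet groups fitted (2505 at an unadjusted p under 0.05), 7 without the 8 libraries, 3 without LCO 10 mg/L replicates 2 and 3 together, 21 with limma-voom, 499 with DESeq2 and 1 to 226 without any 1 library. The 9 of the set became 0, 0 and 0 with only those groups (124 at an unadjusted p under 0.05), without the 8 libraries and without both replicates, 1 with limma-voom, 64 with DESeq2 and 0 to 44 without any 1 library. With the replicate block, which the check of the numbers does not bear out as a pairing, 21 transcripts and 2 of the set were called. The median log2 fold change of the set between the doses was positive under every alternative run, from 0.24 to 0.40, with the set not chosen again. All 6 named transcripts lost their calls without LCO 10 mg/L replicate 2, 3 or 4 or LCO 1 mg/L replicate 2 or 6, and with DESeq2 all 6 kept them; with limma-voom only ENSDART00000148846.2 did. The cause of these changes was not tested. Counts of under 20 estimated reads per library limit the scarcest transcripts.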
